A study of Mus musculus with 3 samples.

Results

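Calmodulin is the main calcium sensor of neurons, and a small set of abundant neuronal proteins binds it. This report describes the calmodulin genes Calm2 and Calm3 and the genes for the calmodulin-binding proteins neurogranin (Nrgn), growth-associated protein 43 (Gap43), MARCKS (Marcks), MARCKS-like protein 1 (Marcksl1) and Purkinje cell protein 4 (Pcp4) in hippocampal area CA1. Members were all probe sets that the platform annotation assigns to exactly 1 of these 7 genes, and 6 genes had such a probe set, each with 1, out of 8251 named genes and 10833 single-gene probe sets. Calm3 had no probe set of its own in the annotation used here and has no value below. RNA came from area CA1 of male mice of the inbred strain C57BL/6J, described as young, 6 h after contextual fear conditioning, a form of learning that ties a place to a foot shock. The training consisted of 3 cycles of 2 min in an unfamiliar context, each ending in a 1 s shock of 0.5 mA, and the mice went back to their home cage 1 min after the final shock. All 3 arrays belong to this 1 group, and no allele, drug or untrained group is among the samples, so no effect of training can be estimated and the comparison made is between replicate arrays. Whether single animals or pools were hybridized is not in the labels, so the p-values below measure only the spread between these arrays, which may be technical.

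Calmodulin is a small protein with EF-hand calcium-binding sites, and the same protein is encoded by several genes in mammals. Calcium that enters a dendritic spine loads calmodulin, which then activates kinases, the phosphatase calcineurin, adenylyl cyclases and other enzymes of synaptic plasticity. Neurogranin in dendrites, GAP-43 in axons and growth cones, and PCP4, also called PEP-19, bind calmodulin through an IQ motif when calcium is low or absent. MARCKS and MARCKSL1 are myristoylated proteins at the plasma membrane that bind actin, acidic lipids and calcium-loaded calmodulin. Protein kinase C phosphorylates neurogranin, GAP-43 and the MARCKS proteins, and in each case this loosens calmodulin binding.

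The upstream sequences of Nrgn and Marcksl1 are shown because these genes had the widest ranges among the binding proteins after median scaling and went opposite ways between arrays, as described below. Of the 7 genes, 4 had an entry in the RefSeq promoter table of build GRCm38.p6, Calm3, Nrgn, Marcksl1 and Pcp4. The Nrgn sequence lies at chr9:37552746-37552995 on the minus strand and the Marcksl1 sequence at chr4:129513331-129513580 on the plus strand. Each gives the 250 bases before the annotated start of the gene, 5′ to 3′ along the gene, and capitals mark every match to the motifs searched.
Nrgn: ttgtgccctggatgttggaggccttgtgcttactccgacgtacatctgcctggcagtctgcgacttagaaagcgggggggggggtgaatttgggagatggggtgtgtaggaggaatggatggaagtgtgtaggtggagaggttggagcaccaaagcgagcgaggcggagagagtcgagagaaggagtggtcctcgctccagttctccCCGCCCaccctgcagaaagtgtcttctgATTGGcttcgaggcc
Marcksl1: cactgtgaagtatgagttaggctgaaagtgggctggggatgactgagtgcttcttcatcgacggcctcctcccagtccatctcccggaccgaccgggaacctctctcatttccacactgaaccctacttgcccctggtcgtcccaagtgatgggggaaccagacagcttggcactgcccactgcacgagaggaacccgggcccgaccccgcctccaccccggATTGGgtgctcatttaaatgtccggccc
Both strands were searched for the TATA box, spelled TATAAA, the CCAAT box, the GC box, spelled GGGCGG, the start of the element that CREB binds, spelled TGACG, and the E box, spelled CACGTG. Nrgn held 1 match to the CCAAT box, beginning 15 bases before the start, and 1 match to the GC box, beginning 43 bases before it, and these do not overlap. Marcksl1 held 1 match to the CCAAT box, beginning 28 bases before the start. In all these cases the match was on the opposite strand. Of 32851 upstream sequences of the same length, 33.9% held the CCAAT box, 32.7% the GC box, 17.8% the CREB motif, 12.4% the TATA box and 6.02% the E box. GC content was 58.4% for Nrgn and 60.4% for Marcksl1, against a median of 52.4%. A match describes letters in this window and was not tested for function.

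The arrays carried 12488 probe sets, 66 of them controls, and the deposited values are linear signal intensities. Probe sets with a mean signal above 174.8, the median of all values, are called measured here, and 6218 passed. The median signal was 176, 177 and 171 on arrays 1, 2 and 3. Between 6 and 18 probe sets had identical values on a pair of arrays, so the arrays are not copies of each other. The CA1 label was checked against markers, and 4 of 4 CA1 pyramidal genes with a probe set were above the threshold on every array, among them Wfs1 at 2522 ± 66.0 (SD, n = 3), Pou3f1 at 579 ± 132 and Dcn at 2839.6 ± 584. Of 5 dentate granule genes with a probe set, 2 were above it on every array, and of 5 CA2 and CA3 genes, 4 were. Since 6218 of 12422 non-control probe sets passed this threshold by their mean, the check cannot set CA1 apart from CA2 and CA3. The ratio of 3′ to 5′ signal of the Gapdh control, a measure of RNA and labelling quality, was lowest on array 2, at 1.21, and was 3.99 on array 1 and 3.94 on array 3. For Actb the ratio was 2.57, 1.86 and 3.50 in array order. The 9 hybridization controls (BioB, BioC, BioD and Cre), transcripts that are added to the hybridization mix, were all lowest on array 2.

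Of the 6 genes with a probe set, 5 were above the threshold on all 3 arrays and Pcp4 was below it on all 3. Calm2, Nrgn, Gap43 and Marcks had their lowest signal on array 2, and Marcksl1 had its highest there. The highest and lowest arrays differed by less than 2-fold for each of the 5 measured genes, and the limma variance test, which asks whether a probe set varies more than others of its level, called 0 of them. The order of genes by signal was not interpreted, since probe sets differ in how strongly they bind their transcript.

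Calm2, a calmodulin gene, gave a signal of 387.8 on array 1, 284.5 on array 2 and 462.3 on array 3, a mean of 378 ± 89.3 (SD, n = 3). Array 3 was highest and array 2 lowest, and all arrays were above the threshold. The signal exceeded that of 67.0%, 59.9% and 71.2% of the 12422 non-control probe sets on arrays 1, 2 and 3, a rank that also depends on the probes. After each array was scaled to a common median over measured probe sets, array 3 was 1.68-fold above array 2, a log2 range of 0.75. This range between replicates was wider than that of 75.9% of measured probe sets. The limma variance test did not call it, with an adjusted p of 0.988 and an unadjusted p of 0.280.

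Nrgn, whose protein holds calmodulin in dendritic spines of forebrain neurons, gave 5069 on array 1, 3759.5 on array 2 and 6313 on array 3, a mean of 5047 ± 1277 (SD, n = 3). The order was that of Calm2, with array 2 lowest and array 3 highest. The signal lay above that of 97.6%, 96.4% and 98.1% of non-control probe sets on arrays 1, 2 and 3. Array 3 was 1.74-fold above array 2 after scaling, a log2 range of 0.80, the widest of the 5 measured genes in this setting. After quantile normalization Calm2 and Marcksl1 were wider, at 0.76 each, against 0.73 for Nrgn. After cyclic loess they were wider again, at 0.71 and 0.77, against 0.65. Marcksl1 was the widest at the threshold of the 75th percentile, at 0.77 against 0.72 for Nrgn, and without array 3, at 0.72 against 0.43. It was also the widest with scaling to the hybridization controls, at 1.27 against 0.18. After median scaling, arrays 1 and 2 differed by 1.35-fold for Nrgn and arrays 1 and 3 by 1.28-fold. A wider range was found in 20.8% of measured probe sets, and the limma adjusted p was 0.971, with an unadjusted p of 0.101. With 1 array left out, the log2 range was 0.80 without array 1, 0.36 without array 2 and 0.43 without array 3.

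Gap43, which encodes a growth cone and presynaptic protein, gave 4508.5, 3133 and 3889 on arrays 1, 2 and 3, a mean of 3844 ± 689 (SD, n = 3). Array 2 was again lowest, but here array 1 was highest. The log2 range after scaling was 0.53, or 1.44-fold, near the median of 0.48 over all measured probe sets. The limma adjusted p was 0.988 and the unadjusted p 0.298. The suffix of this probe set (_s_at) marks probes that may match more than 1 transcript, although the annotation gives Gap43 alone. With 1 array left out, the log2 range was 0.36 without array 1, 0.17 without array 2 and 0.53 without array 3.

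**Figure D1:**
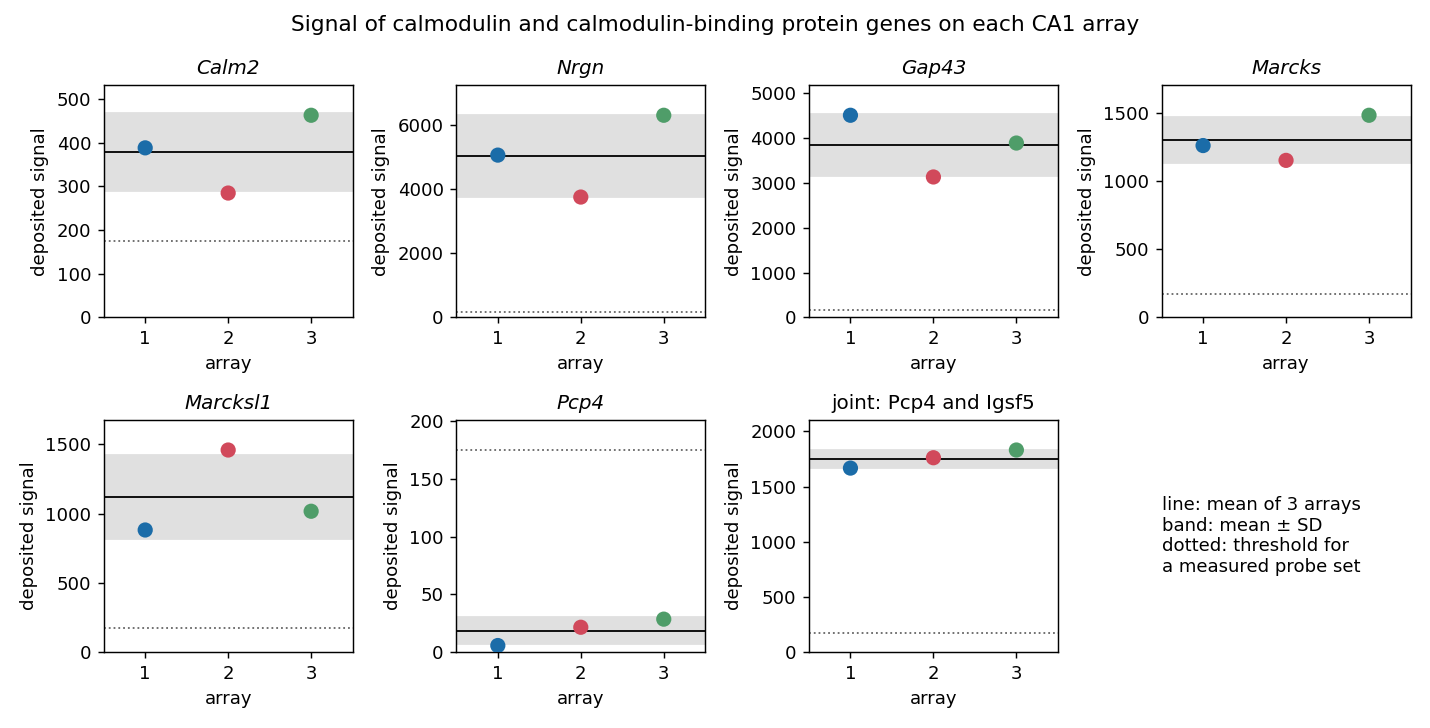
Deposited signal (linear, vertical axis from 0) on arrays 1, 2 and 3 for each of the 6 genes with a probe set of its own, and for a probe set annotated to Pcp4 and Igsf5 together. Points are single arrays, lines the mean of 3 arrays, bands the mean ± SD and dotted lines the threshold of 174.8. Calm2, Nrgn, Gap43 and Marcks are lowest on array 2, Marcksl1 is highest there, and the Pcp4 probe set stays between 5.8 and 28.6.

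Marcks, the gene of the myristoylated alanine-rich C-kinase substrate, had the smallest log2 range of the 5 measured genes after median scaling of all 3 arrays. Without array 1, Gap43 at 0.36 lay below the 0.41 of Marcks. Without array 2, Gap43 at 0.17 and Marcksl1 at 0.25 lay below its 0.28. With scaling to the hybridization controls, Calm2 at 0.11, Nrgn at 0.18 and Gap43 at 0.37 lay below the 0.41 of Marcks. Its signal was 1259, 1150.1 and 1480.3 on arrays 1, 2 and 3, with a mean of 1296 ± 168 (SD, n = 3). Array 2 was lowest and array 3 highest, as for Calm2 and Nrgn, with a log2 range of 0.41, or 1.33-fold. A wider range was found in 59.2% of measured probe sets, and the limma adjusted p was 0.988, with an unadjusted p of 0.510.

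Marcksl1, the smaller relative of Marcks, did not share this order. It gave 883 on array 1, 1460.0 on array 2 and 1018 on array 3, a mean of 1120 ± 302 (SD, n = 3). Array 2 stood above both others, 1.65-fold above array 1 and 1.39-fold above array 3 after scaling. Its log2 range of 0.72 was exceeded by 26.0% of measured probe sets, and the limma adjusted p was 0.978, with an unadjusted p of 0.188. With 1 array left out, the log2 range was 0.47 without array 1, 0.25 without array 2 and 0.72 without array 3.

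Among 13 lists of cell type markers, the summed signal was highest on array 2, where Marcksl1 was highest, for 5 lists and lowest there for 3. All 4 measured choroid plexus and ependyma markers had their highest signal there, and the summed signal of the 6 markers with a probe set was 7580.2 there, against 3879 on array 1 and 2360.1 on array 3. Of 4 measured CA2 and CA3 markers, 2 were highest on array 2, with sums over 5 genes of 6276, 11431 and 7627 on arrays 1, 2 and 3, a difference carried mostly by Nnat at 1042, 4861.5 and 885. Of 6 measured thalamic markers, 3 were highest on array 2, with sums over 9 genes of 3685, 5932 and 3244, carried mostly by Cplx1 at 1417, 3458 and 1124. The choroid plexus sum was likewise carried mostly by Ttr at 1333.5, 4257 and 94.2. This Ttr probe set was the only 1 of the 6218 measured that the limma variance test called. Its log2 range was 5.45 and its adjusted p 0.049. The sums were also highest on array 2 for astrocyte markers, at 43188, 47866 and 38218, and for oligodendrocyte markers, at 23417, 24777 and 23642. Of 8 measured astrocyte markers, 3 were lowest on array 2 and 3 highest. Of 5 measured oligodendrocyte markers, 1 was lowest there and 3 were highest. Meningeal and fibroblast markers did not share this order, with 3 of 6 measured lowest on array 2 and 2 highest. Over all measured probe sets, 42.3% were lowest and 33.2% highest on array 2. No marker of these lists was listed at 0. Their part in the Marcksl1 signal was not tested.

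Pcp4, which encodes a small IQ-motif protein that speeds calcium exchange on calmodulin, was not measurable with its own probe set. It gave 5.8, 21.6 and 28.6 on arrays 1, 2 and 3, a mean of 18.7 ± 11.7 (SD, n = 3). The 15 probe sets for bacterial transcripts that mouse RNA lacks gave between 5.3 and 115 over the arrays, with a median of 14.7, so the Pcp4 values lie inside their range and have no usable order. No fold or test was computed for it. A further probe set is annotated to Pcp4 and Igsf5 together, genes on chromosome 16, and gave 1668, 1762.0 and 1832 on arrays 1, 2 and 3. It was not counted for either gene, and which of their transcripts it detected cannot be told from these files. A low signal of the Pcp4 probe set therefore does not show that the transcript was absent from the tissue.

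Calm2, Nrgn, Gap43 and Marcks were lowest on array 2, that is 4 of the 5 measured genes, while 42.3% of all 6218 measured probe sets were lowest there. Marcksl1 was highest on array 2, as were 33.2% of all. Calm2, Nrgn and Marcks were highest on array 3, as were 37.5% of all, and 24.7% of all combined the lowest signal on array 2 with the highest on array 3. Gap43 was highest on array 1, as were 29.3% of all, or 17.6% when array 2 also had to be lowest. Marcksl1 was lowest on array 1, as were 29.3% of all. On the log2 scale, array 2 minus the mean of arrays 1 and 3 was -0.60 for Calm2, -0.62 for Nrgn, -0.45 for Gap43, -0.27 for Marcks and 0.60 for Marcksl1. For Nrgn, 91.2% of measured probe sets had a higher value of this difference, and for Marcksl1, 10.2% did. These shares describe 5 genes on 3 arrays and were not tested as a set. Neuronal markers differed in their order. The 4 CA1 genes gave sums of 7577, 6261 and 6233 on arrays 1, 2 and 3, with the sum lowest on array 3. Of these genes, 2 were lowest on array 2 and 2 on array 3. The sums were 3843, 3396 and 3952 for 5 general excitatory neuron genes, of which 3 were measured and 2 were lowest on array 2. Interneuron markers had 2 of 9 measured genes lowest on array 2 and 6 lowest on array 1. Their sums were 36505, 37200.2 and 44129.9 (11 genes) on arrays 1, 2 and 3. The part of these markers in the lower signal of Calm2, Nrgn, Gap43 and Marcks was not tested, and fewer neurons and less transcript per neuron cannot be told apart in tissue RNA.

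The hybridization controls moved in the same way as Calm2 and Nrgn. Array 2 minus the mean of the other arrays had a median of -0.61 over the 9 controls, with values from -0.90 to -0.46, and 7 of the 9 were highest on array 3. When the arrays were instead scaled to these controls, a setting chosen after the data were seen, the log2 range of Calm2 was 0.11 and that of Nrgn 0.18, and array 2 was no longer lowest for any of the 5 genes. Gap43 and Marcks were then highest on array 2, and the log2 range of Marcksl1 was 1.27. That scaling also moved the median of all measured probe sets on array 2 to 0.43 above the mean of the 3 arrays on the log2 scale. Since it multiplies all probe sets of an array by 1 factor, it cannot change the position of a gene relative to that median. Under no scaling, quantile normalization and cyclic loess, array 2 was lowest for the same 4 genes and highest for Marcksl1. The 3′ to 5′ ratio was also lowest on array 2 for both control genes. For Gapdh it was 1.21 there, against 3.99 on array 1 and 3.94 on array 3. For Actb it was 1.86, against 2.57 and 3.50. The parts of the hybridization step and of RNA and labelling quality in these differences were not tested, and 3 arrays cannot tell them apart.

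**Figure D2:**
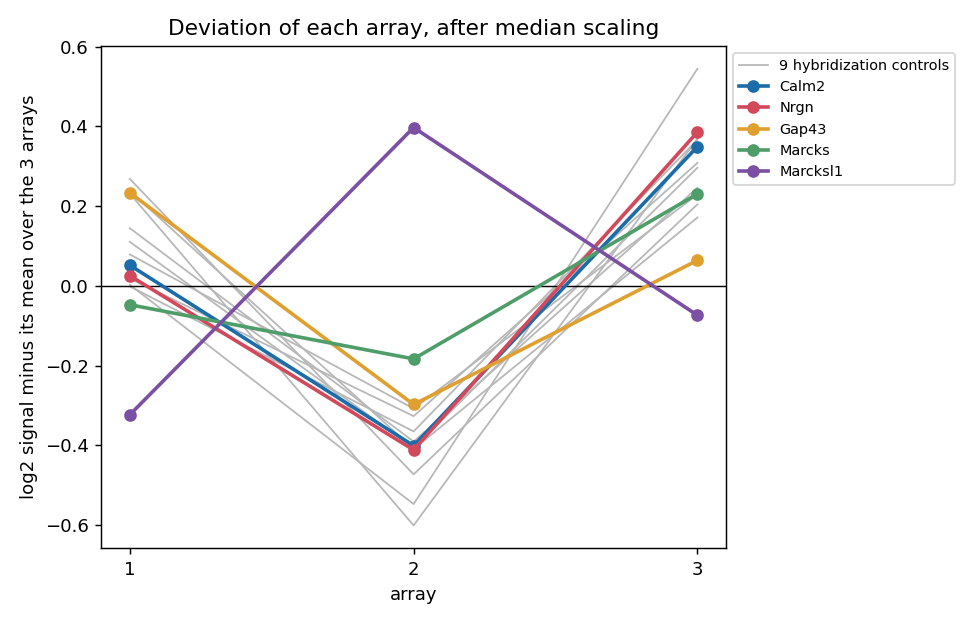
Log2 signal minus its own mean over the 3 arrays, after median scaling, for the 5 measured genes (coloured lines and points) and the 9 hybridization controls (grey lines), with arrays 1, 2 and 3 on the horizontal axis. Calm2 and Nrgn run through the middle of the grey lines, all of which dip on array 2, and Marcksl1 peaks there.

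Of the 5 measured genes, 0 passed the limma variance test across all measured probe sets at an adjusted p under 0.05, and 0 had an unadjusted p under 0.05. Over all 6218 probe sets the first share was 0.0161%, 1 probe set, that of Ttr, and the second was 5.21%. Among the 5 genes, 0 had arrays more than 2-fold apart, against 12.1% of all measured probe sets. Their median log2 range was 0.72, against 0.48 over all measured probe sets. When 1 array was shifted in simulated data over all 6218 probe sets, calls were made for 0% of genes moved by 1 log2 unit, 9.5% by 2 and 72.5% by 3, so differences of the size seen here lie below what it can call with 3 arrays.

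**Figure D3:**
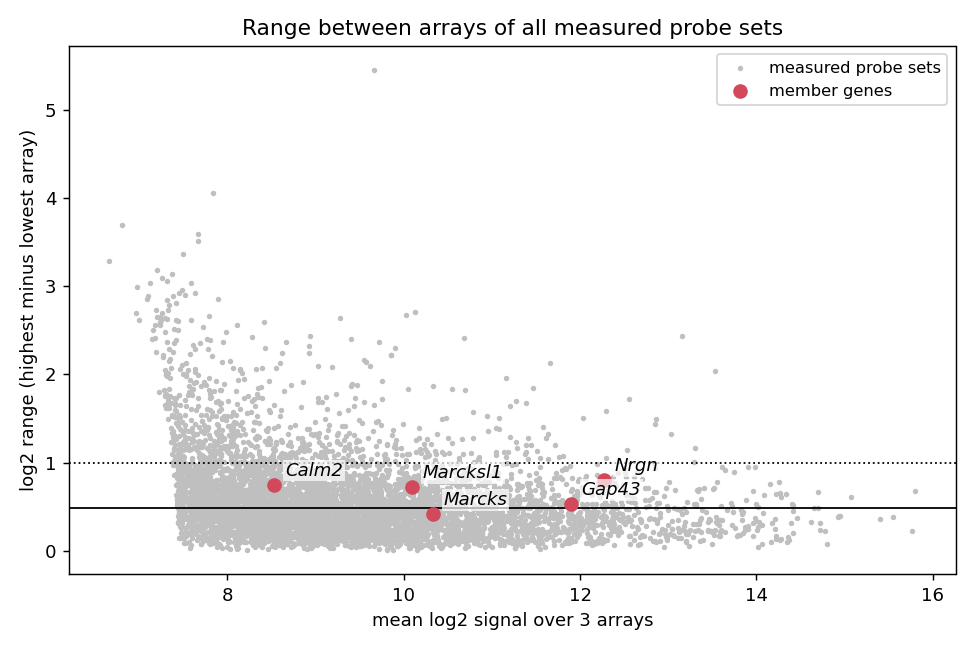
Log2 range between the highest and lowest array (vertical axis) against mean log2 signal (horizontal axis) for 6218 measured probe sets in grey and the 5 measured genes in red. The solid line is the median range of 0.48, the dotted line a 2-fold range, and all 5 genes lie below the dotted line, with Marcks under the median.

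The pattern of Nrgn over the 3 arrays was matched most closely by Pxk, Dnajc3 and Ube2r2 among 4871 other measured genes. The root mean square difference of their log2 deviations from that of Nrgn was 0.0074 for Pxk, 0.0080 for Dnajc3 and 0.011 for Ube2r2. Pxk gave 481, 352 and 598, Dnajc3 414.6, 304 and 510.2, and Ube2r2 3501, 2587 and 4422 on arrays 1, 2 and 3. With 3 arrays many genes can fall close to a given pattern, and the likeness is a description.

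The partners of these genes were read through 5 lists with 82 genes, of which 59 had a probe set and 46 were measured. Taken over the lists, the limma variance test called 0 genes, 2 had an unadjusted p under 0.05, and 3 had arrays more than 2-fold apart, or 6.52% of those measured, against 10.2% of all measured genes. An unadjusted p under 0.05 was found for 223 of all 4876 measured genes, each at its brightest probe set, and for 5.21% of all measured probe sets. The median log2 range of the 46 list genes was 0.40. Array 2 was lowest for 34.8% of the list genes and highest for 37.0%. It was lowest for 2102 and highest for 1592 of the 4876 measured genes, and for 42.3% and 33.2% of all measured probe sets.

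Among kinases, phosphatases and other enzymes that calmodulin activates, 12 of 18 genes with a probe set were measured, 0 passed the test in limma and 0 had an unadjusted p under 0.05. Camk2b, a subunit of the calcium- and calmodulin-dependent kinase II, gave 8809, 8578 and 9133 on arrays 1, 2 and 3, a log2 range of 0.14. Ppp3ca, a catalytic subunit of calcineurin, gave 9787, 8421 and 13124, with array 2 lowest and array 3 highest as for Calm2. The other catalytic subunits differed, with Ppp3cb at 767, 717 and 573 and Ppp3cc at 169.8, 224 and 187. The median log2 range of the list was 0.38, against 0.47 over all measured genes.

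Among calmodulin targets of the membrane and cytoskeleton, 8 of 9 genes with a probe set were measured and the median log2 range was 0.69. Kcnn1, a calcium-activated potassium channel gated through calmodulin, had the widest range of the 5 lists, with 174.5, 343 and 614 on arrays 1, 2 and 3. Its log2 range was 1.86, and it had an unadjusted p of 0.014 and a limma adjusted p of 0.779. Ryr3, an intracellular calcium release channel, gave 495, 210.2 and 395, a log2 range of 1.24, while its second probe set gave 312, 411 and 294, with array 2 highest. Atp2b2, a plasma membrane calcium pump, gave 743, 527 and 444, the spectrin gene Sptan1 gave 4335, 4761 and 5493.5, and the adducin gene Add1 gave 3687, 3466 and 4975.5.

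Among protein kinase C genes, whose products phosphorylate neurogranin, GAP-43 and MARCKS, 6 of 8 with a probe set were measured and 0 had an unadjusted p under 0.05 or passed the test in limma. Prkcb gave 18541, 13773 and 20583 on arrays 1, 2 and 3, lowest on array 2 and highest on array 3 like Nrgn, and the order was the same at its second probe set, with 2649.7, 2121 and 2666. Prkce gave 2534, 2125 and 3069, also in this order, but its second probe set gave 1140.2, 833 and 768, lowest on array 3. Prkca gave 532, 418 and 449, and Prkcd gave 593, 493 and 448, with 342.5, 356 and 252 at its second probe set. The median log2 range of the list was 0.36.

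Among other growth cone and calmodulin regulator genes, 7 of 8 were measured, with 0 past the test in limma and 0 at an unadjusted p under 0.05. Of the 7, 5 were highest on array 2, as were Marcksl1 and 33.2% of all measured probe sets. Basp1, whose product resembles GAP-43 and MARCKS in binding calmodulin and acidic lipids, gave 28374, 24825 and 28195 on arrays 1, 2 and 3, a log2 range of 0.23, and 13889.8, 15005 and 16247 at its second probe set, in another order. Pcp4l1, a relative of Pcp4, gave 308, 483 and 419.5 and was above the threshold on every array. The microtubule regulators Stmn1 and Stmn2 gave 3299.6, 5836 and 3477, and 4262.5, 5163 and 4009. A further probe set of Stmn2 gave 3323, 2872 and 3459, with array 2 lowest, so the order depended on the probe set. Below the threshold on every array were another Stmn2 probe set, at 83.2, 69.7 and 23.4, and a second Stmn1 probe set, at 16.8, 27.2 and 122.5.

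Among other EF-hand calcium-binding genes, 13 of 16 with a probe set were measured and 0 passed the test in limma. Of the 13, 6 were highest on array 2, against 33.2% of all measured probe sets. The neuronal calcium sensors Hpca and Vsnl1 were highest there, at 12316, 16736 and 12243.5, and at 6656, 10076 and 6127. Hpcal1 gave 1288, 1252.5 and 1139, and Hpcal4 gave 643, 478 and 418.5. S100a1 gave 534, 1193 and 633.5, a log2 range of 1.15, with an unadjusted p of 0.044 and a limma adjusted p of 0.913. The suffix of this probe set (_f_at), which the Hpcal1 probe set shares, also marks probes that may match more than 1 transcript. The annotation gives 1 gene for each. A dimmer S100a1 probe set read 69.2, 81.9 and 66.6, highest on array 2. Another read 22.8, 17 and 62.7, lowest on array 2. Both stayed below the threshold on all arrays, so the S100a1 order could not be checked at another measured probe set. The median log2 range of the list was 0.44.

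**Figure D4:**
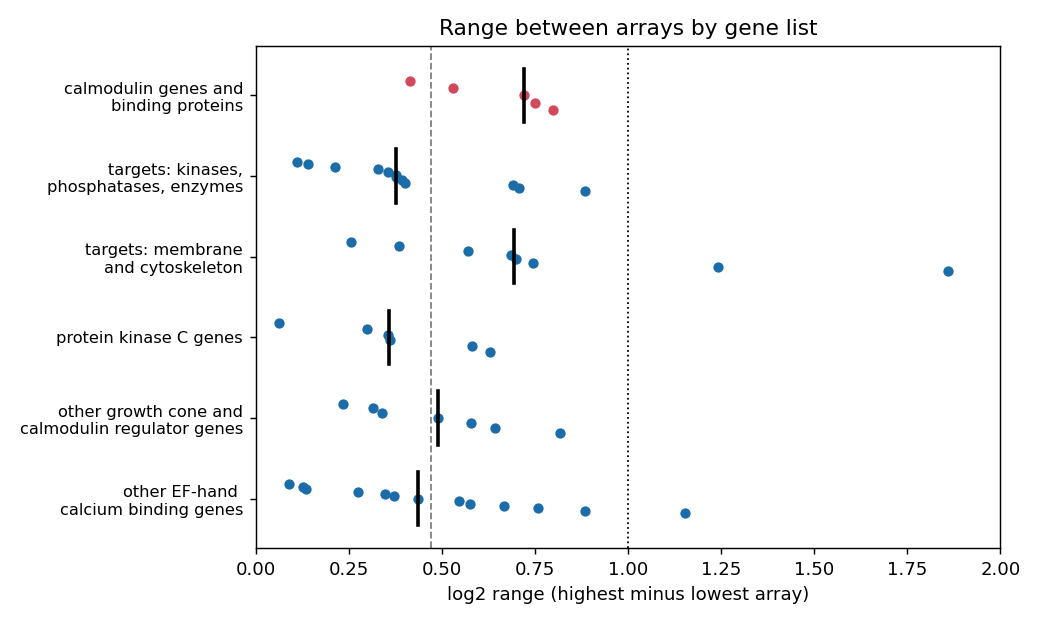
Log2 range between the highest and lowest array (horizontal axis) for the 5 measured genes in red and the measured genes of the 5 partner lists in blue, each point a gene at its brightest probe set. Bars are list medians, the dashed line is the median of 0.47 over all measured genes and the dotted line a 2-fold range, which Kcnn1, Ryr3 and S100a1 pass.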

How the data were processed

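Total RNA from CA1 was measured on 3 arrays of 1 group. The deposited values are linear signal intensities, with 1 per array for each probe set. With the outer 2% on either side removed, each array had a mean of 500.3, so the deposited intensities already share a scale. The sources used here do not name the program or background correction. Probe sets were named through the platform annotation, and of 10833 with 1 gene 10817 were found by identifier in the GRCm38.p6 gene table. The 396 probe sets with several genes were not named.

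Arrays were scaled to a common median over measured probe sets (factors 0.991, 0.987 and 1.02), floored at 47.5, the 25th percentile of all values, and log2-transformed. Each probe set's variance was tested against a robust intensity-dependent prior in limma 3.58.1 (R 4.3.3; tails winsorised at 0.05 and 0.1), with Benjamini-Hochberg adjustment over all 6218 measured probe sets. On simulated data with 200 probe sets shifted in each of 5 rounds it made 11 false calls in all.

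The genes named are all members, the first 4 measured genes of each partner list and any there with a log2 range above 1, the 3 nearest patterns to the widest member after median scaling, and the first 3 CA1 markers. Others were named for their result. Nnat, Cplx1 and Ttr carried most of the difference in the sum of their list, and Pde1c passed the test with no threshold. The members, lists and tests were chosen with earlier results of these data known. A list gene is represented by its brightest probe set. Precision is limited by having 3 arrays. The alternatives changed the scaling, floor, threshold, prior, arrays and probe sets, and 0 columns of other samples were present.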

Additional observations from a re-analysis of the deposited data

Results flagged for a closer look

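The probe set annotated to Pcp4 and Igsf5 together lies outside the single-gene probe sets and gave a mean signal of 1754 ± 82.2 (SD, n = 3), above 115, the highest value of the bacterial control probe sets. Its log2 range between arrays was 0.18, exceeded by 89.7% of measured probe sets. The single-gene Pcp4 probe set gave 18.7 ± 11.7. There are no untrained samples to compare with, and which transcript gave the signal was not tested.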

How the results depend on the processing

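Of the 5 measured member genes, 0 passed the limma variance test under any of the 13 alternatives run on them. Of these alternatives, the scaling to hybridization controls was chosen after seeing the data. Adjusted p ranged from 0.981 to 1 for Calm2, 0.945 to 1 for Nrgn, 0.957 to 1 for Gap43, 0.985 to 1 for Marcks and 0.802 to 1 for Marcksl1. Calm2 was not measured at the threshold of the 75th percentile, and Pcp4 entered only with no threshold, with all arrays at the floor. The count over all probe sets, 1 in the main setting, was 0 after quantile normalization, after cyclic loess, at the threshold of the 75th percentile and with the prior that is not robust, 6 at the 25th percentile, 27 with scaling to hybridization controls and 1375 with no threshold, where probe sets at the floor on all arrays and so without variance enter the fit. Leaving out 1 array gave between 0 (without array 2) and 44 (without array 3). With no threshold 1 gene passed in the list of calmodulin-activated enzymes, Pde1c, a dim gene. The other partner lists kept a count of 0 under each alternative. Without array 2 the log2 ranges were 0.30 for Calm2, 0.36 for Nrgn, 0.17 for Gap43, 0.28 for Marcks and 0.25 for Marcksl1; without array 3 they were 0.45, 0.43, 0.53, 0.13 and 0.72 in the same order, and without array 1 they were 0.75, 0.80, 0.36, 0.41 and 0.47. Leaving out the highest or lowest array of a gene narrows its range by construction. Array 2 was the highest or lowest for each of the 5 measured genes. No paired analysis was possible because all arrays belong to 1 group. Signals near those of bacterial controls, such as Pcp4, carry no order.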
